A study of Taeniopygia guttata with 48 samples.

Results

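The nucleus taenia is the part of the avian amygdala that exchanges connections with the hypothalamus and takes part in social and sexual behaviour. It lies in the telencephalon, whereas the hypothalamus lies in the diencephalon and controls hormone release, feeding and reproduction. Both regions are known in songbirds to hold cells with androgen and oestrogen receptors. Described here are 140 zebra finch genes whose mean log2 RNA level was higher in the nucleus taenia than in the hypothalamus. This held in males and also in females. They were taken out of 11006 genes of sufficient level and 17475 genes in all. The genes were chosen by their FPKM values, that is fragments per kilobase of transcript scaled to the number of mapped fragments. A gene was taken when its mean was at least 5 FPKM over 23 libraries. Its mean log2(FPKM + 1) in the nucleus taenia also had to exceed that in the hypothalamus by at least 0.5 in each sex. The region difference itself chose these genes, so it is given as a description without a test.

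The birds were adults that hatched from eggs injected on the day of laying. The testosterone groups received 500 pg of the hormone dissolved in 5 µl of peanut oil, and the controls 5 µl of the oil alone. All birds therefore shared the injection of oil. Tissue was taken with a 1 mm punch from frozen 50 µm brain sections, and mRNA libraries that keep strand were made from it. There were 8 groups of 3 libraries each: testosterone males, control males, testosterone females and control females, each for the nucleus taenia and the hypothalamus. Nothing in the labels ties a library to a bird, so neither its independence within a group nor the sharing of birds between regions is known. The p-values therefore cover the spread between samples, which may be partly technical. The gene identifiers are not paired with names in the file, and 0 of them matched the gene table at hand, so neither a function nor a regional marker can be assigned to any of the 140 genes.

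Total FPKM ran from 808096 to 1158300 and the number of genes above 0 from 14386 to 15152 in the 23 libraries used. The library labelled female testosterone hypothalamus replicate 3 stood apart and was left out of the choice of genes and of the tests. Its mean Pearson r with the other 23 libraries, across genes, was 0.757, and its median was 7.03 FPKM, against 10.33 to 12.02 FPKM in the others. On the 126 genes called higher by limma, a linear model with moderated variances, in male than in female nucleus taenia, none of them among the 140, it scored 0.51 on the centred log2 scale. The male hypothalamus libraries scored 0.21 to 0.75 and the other female ones −0.60 to −0.28, so it lay within the male range. Male testosterone nucleus taenia replicate 2 had the next lowest mean r, 0.844.

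With the region labels exchanged in both sexes, the same rule found 108 genes, those higher in the hypothalamus of both. With the labels exchanged in females only it found 53 genes, higher in male nucleus taenia and in female hypothalamus. With the labels exchanged in males only it found 93 genes. The labelled direction thus gave the highest of the 4 counts at a least difference of 0.5, with 140 genes or 1.27% of the 11006. That order depended on the least difference asked for. At 0.75 the count was 45 for the nucleus taenia and 53 for the hypothalamus, and at 1 it was 16 for the nucleus taenia and 26 for the hypothalamus. It also depended on the library left out. With female testosterone hypothalamus replicate 3 kept, 152 genes were higher in the nucleus taenia of both sexes, and 163 were higher in male hypothalamus and in female nucleus taenia. That list of opposite sexes was also the longer in 6 of the 23 fits that left out 1 library, most of all without male control hypothalamus replicate 1, where it held 208 genes and the nucleus taenia list 133. Scaling of the libraries kept the order but narrowed the lead over the hypothalamus. Median-ratio scaling gave 125 genes for the nucleus taenia and 116 for the hypothalamus, and quantile normalization gave 135 and 119.

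**Figure D1:**
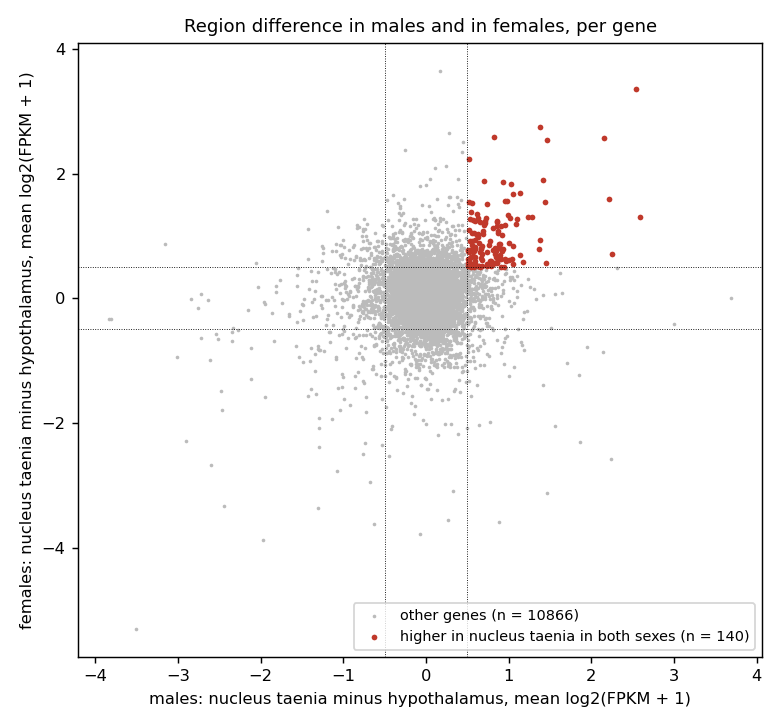
Each point is 1 of 11006 genes, with its difference in mean log2(FPKM + 1), nucleus taenia minus hypothalamus, in males on the x axis and in females on the y axis. Dotted lines mark 0.5 and −0.5, and the 140 red genes fill the upper right corner, most of them close to the lines.

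Most of the 140 genes lay near the threshold. The smaller of a gene's differences in males and in females had a median of 0.63 and reached 1 in 16 genes. The gene just inside the rule differed by 0.94 in males and 0.50 in females, and the gene just outside by 0.51 in males and 0.49 in females. The median difference was 0.75 in males and 0.81 in females, and 84 genes had the larger difference in females. A higher mean log2 level did not always go with a higher mean FPKM. In males ENSTGUG00000003837 averaged 11.75 FPKM in the nucleus taenia and 11.82 FPKM in the hypothalamus. ENSTGUG00000018521 averaged 24.8 FPKM and 26.7 FPKM there. In bulk tissue such as these punches, more cells of a type and more RNA per cell cannot be told apart.

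The male and the female libraries are separate samples, so a list chosen in one sex can be read in the other. The floor of 5 FPKM was taken over both sexes, so the reading is not fully separate. Deviations from group means of same-numbered male and female libraries correlated at −0.152 to 0.451 in the hypothalamus. In the nucleus taenia they did so at −0.281 to 0.101. Of the 11006 genes, 418 were higher by at least 0.5 in male nucleus taenia, and 140 of these, or 33.5%, were so in females, where 8.20% of all genes were. A further 53 of the 418, or 12.7%, were higher by at least 0.5 in female hypothalamus, where 6.49% of all genes were. The median female difference of the 418 genes was 0.23, against 0.05 for all 11006. In the limma fits it ran from 0.13, without female control nucleus taenia replicate 2, to 0.36, without female control nucleus taenia replicate 1. The list thus went past the limit more often than other genes in both directions, and more often in the direction of the nucleus taenia. The other genes were not matched to the list in spread.

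In the reverse reading the median was that of all genes. Of the 902 genes higher in female nucleus taenia, 140, or 15.5%, were so in males, where 3.80% of all genes were. In the opposite direction there were 93, or 10.3%, where 4.52% of all genes were higher in male hypothalamus. The median male difference of the 902 genes was 0.01, as it was for all 11006, and 51.2% were higher in male nucleus taenia, against 52.1% of all genes. In limma, 0 of the 417 male-chosen genes that were tested passed an adjusted p of 0.05 for region in females, where 0% of 13528 genes passed. Of the male-chosen genes 61, or 14.6%, had an unadjusted p under 0.05, and 11.9% of all genes did. In males 0 of the 902 female-chosen genes passed, where 0% of 13537 genes passed, and 45, or 4.99%, had an unadjusted p under 0.05, against 2.22% of all genes. Deviations of same-numbered male control libraries correlated across the regions at 0.670, 0.535 and 0.531. The male testosterone libraries did so at 0.378, 0.295 and −0.062, and the female libraries at −0.012 to 0.273. With the replicate number as a block 1 of the 902 genes passed, lower in the nucleus taenia, and it was the only call among 13537 genes.

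No gene separated the regions completely. In 0 of the 140 genes did the lowest of the 12 nucleus taenia libraries lie above the highest of the 11 hypothalamus libraries, and over all 11006 genes the number was also 0 in either direction. In 11 of the 140 genes no nucleus taenia library lay above the highest hypothalamus library, in 74 genes at least 3 did, and in 17 at least 6 did. Medians could go against the means. In ENSTGUG00000001798, 5 of 12 nucleus taenia libraries lay above the hypothalamus median, and 8 of 11 hypothalamus libraries above the nucleus taenia median. The highest of the 23 values was a nucleus taenia library in 129 genes and a male library in 104. A single library was lowest in 127 genes, the other 13 having several libraries listed at 0. It was a hypothalamus library in 98 of these genes and a female library in 98. The rule itself favours a nucleus taenia library as the highest and a hypothalamus library as the lowest. Shares over all 11006 genes are not given for these counts. In the limma fit over the 23 libraries 0% of 13600 genes passed for region, so 0 of the 140 did, and 825 genes of all had an unadjusted p under 0.05. The rule used this contrast, and nothing is read from that count.

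Single libraries decided much of the list. Male testosterone nucleus taenia replicate 2 was the highest library in 51 of the 140 genes, and male testosterone nucleus taenia replicate 3 in 20. Shares over all genes are not given for these counts, and replicate 2 also had the largest total of the 23 libraries, 1158300 FPKM. Without replicate 2 of that group the rule found 145 genes, but 100 of the 140 were among them. Over all 23 ways of leaving out 1 library the count was lowest, at 108, without female control nucleus taenia replicate 2. It was highest, at 188, without replicate 1 of the male testosterone nucleus taenia. Between 100 and 132 of the 140 genes were kept.

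The spread of the 140 genes between libraries of a group was wide. Their median standard deviation within groups, on the log2(FPKM + 1) scale, was 0.93, against 0.40 for the 11006 genes. The lists with exchanged labels had medians of 1.22, 1.38 and 1.10, so wide spread was shared by all 4 lists. A value of 0 was listed in at least 1 of the 23 libraries for 20 of the 140 genes, or 14.3%, against 3.07% of the 11006 genes. In the lists with labels exchanged in both sexes, in females and in males the share was 30.6%, 35.8% and 14.0%. Mean level differed little: the median gene had 24.2 FPKM among the 140 and 30.9 FPKM among the 11006, and the 140 spanned 5.21 to 2716 FPKM.

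ENSTGUG00000001910 had the largest difference by the smaller of the sexes, 2.54 in males and 3.35 in females. Its FPKM averaged 228 ± 141 in male nucleus taenia and 141 ± 193 in male hypothalamus (SD, n = 6 each). It averaged 130 ± 146 in female nucleus taenia (n = 6) and 7.56 ± 10.9 in female hypothalamus (n = 5). The regions overlapped widely. Male testosterone hypothalamus replicates 1 and 2 had 459 and 296 FPKM, while female testosterone nucleus taenia replicate 3 and female control nucleus taenia replicate 1 had 4.42 and 5.66 FPKM.

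ENSTGUG00000008738 was second, with differences of 2.15 in males and 2.56 in females. It ran from 0 to 483 FPKM in the nucleus taenia with a median of 118, and from 0 to 97.5 FPKM in the hypothalamus with a median of 49.3. It was listed at 0 in 4 of the 23 libraries, female testosterone nucleus taenia replicate 1, male testosterone hypothalamus replicate 2 and female testosterone hypothalamus replicates 1 and 2. In 8 of 12 nucleus taenia libraries it lay above every hypothalamus library used. The left-out female testosterone hypothalamus replicate 3 had 366 FPKM.

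The genes that came nearest to separating the regions had small differences. ENSTGUG00000005922 had 21.8 to 41.9 FPKM in the nucleus taenia with a median of 30.4, and 14.2 to 27.2 FPKM in the hypothalamus with a median of 19.8. Its differences were 0.56 in males and 0.52 in females, and 8 of 12 nucleus taenia libraries lay above all 11 hypothalamus libraries. The lowest nucleus taenia library was male testosterone replicate 1. ENSTGUG00000010602 had 16.5 to 33.9 FPKM in the nucleus taenia and 10.5 to 20.7 FPKM in the hypothalamus, with differences of 0.66 in males and 0.51 in females. In these genes all 12 nucleus taenia libraries lay above the hypothalamus median.

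The most abundant of the 140 was ENSTGUG00000004372. It averaged 3925 ± 3290 FPKM in male nucleus taenia and 1953 ± 724 FPKM in male hypothalamus (SD, n = 6 each), and 2942 ± 745 FPKM in female nucleus taenia (n = 6) and 1908 ± 950 FPKM in female hypothalamus (n = 5). Its highest male values were those of male testosterone nucleus taenia replicate 2, with 9341 FPKM, and male control nucleus taenia replicate 1, with 6631 FPKM. The left-out female testosterone hypothalamus replicate 3 had 7279 FPKM, above both other libraries of its group, at 1513 and 1072 FPKM. Male control nucleus taenia replicates 2 and 3 had 1550 and 1272 FPKM, below the male hypothalamus mean. ENSTGUG00000000571, with the second highest level, followed the same libraries, at 5697 and 3152 FPKM in those that were highest in males. Without male testosterone nucleus taenia replicate 2 the male difference dropped to 0.35 for ENSTGUG00000004372, against 0.68 with it. For ENSTGUG00000000571 it dropped to 0.17, against 0.55.

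**Figure D2:**
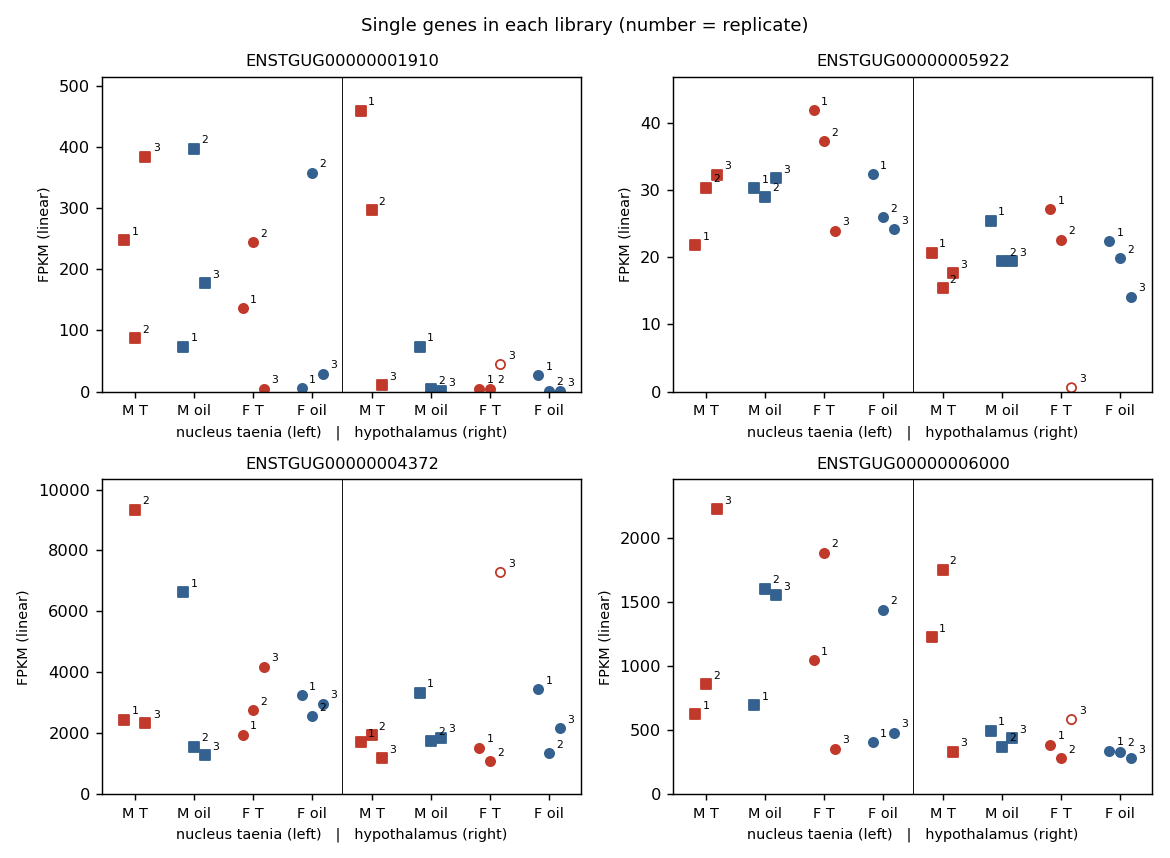
FPKM on a linear axis from 0 in each library for 4 of the genes, with nucleus taenia groups left of the line and hypothalamus groups right of it (M, male, squares; F, female, circles; T, testosterone, red; oil, control, blue; the open circle is the left-out library). ENSTGUG00000005922 shows the narrowest overlap between regions, while ENSTGUG00000001910 reached 459 FPKM in male testosterone hypothalamus replicate 1.

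The 140 genes fell into 3 sets that rose and fell together across libraries, with 16 genes outside them. The sets were found by average-linkage clustering of the Pearson correlations of log2(FPKM + 1) over the 23 libraries, cut at a distance of 0.6. They held 70, 42 and 12 genes. Clustering used all values of these genes, so the sets are a description and none was tested. After group means were removed, the median correlation between pairs of genes was 0.53 in the first set, 0.55 in the second and 0.33 in the third. It was 0.20 over all pairs of the 140 genes and 0.002 over all pairs of the 11006. The lists with exchanged labels had medians of 0.24, 0.18 and 0.46, so co-variation was common to all 4 lists.

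In the first set of 70 genes high and low libraries were found in both regions. The mean centred level was 0.64 to 1.34 in 6 nucleus taenia libraries: male testosterone replicate 3, male control replicates 2 and 3, female testosterone replicates 1 and 2, and female control replicate 2. It was also high in male testosterone hypothalamus replicates 1 and 2, at 0.79 and 1.09. In female testosterone nucleus taenia replicate 3 and female control nucleus taenia replicates 1 and 3 it was −0.65, −0.89 and −0.67, within the −1.08 to −0.47 of the other 9 hypothalamus libraries. The other 3 nucleus taenia libraries, all male, lay between, from 0.00 to 0.49. Thus 6 of 12 nucleus taenia and 2 of 11 hypothalamus libraries were in the high range, and 3 of 12 and 9 of 11 in the low one.

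ENSTGUG00000006000, the gene with the highest mean correlation to the others of the first set, showed the same pattern. It had 1045 to 2224 FPKM in the 6 high nucleus taenia libraries and 1223 and 1752 FPKM in the high hypothalamus libraries. The 3 nucleus taenia libraries between had at most 860 FPKM. In the 3 low nucleus taenia libraries it had 354, 402 and 478 FPKM, and in the other 9 hypothalamus libraries 278 to 494 FPKM. Its pattern was not particular to the 140 genes. Over the 23 libraries, 87 of the other 11005 genes correlated with it at r of at least 0.8, of which 29 were among the 140. The most similar gene was ENSTGUG00000010572, one of the 140, at r = 0.95.

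The second set of 42 genes was carried by 4 libraries. Its mean centred level was 2.65 in male testosterone nucleus taenia replicate 2, 1.72 in male control nucleus taenia replicate 1, 1.20 in female control nucleus taenia replicate 2 and 1.45 in male control hypothalamus replicate 1. In the remaining libraries it ran from −0.63 to 0.31 in the nucleus taenia and from −1.05 to −0.11 in the hypothalamus. ENSTGUG00000013459, closest to the others of this set, had 305, 145 and 125 FPKM in those 3 nucleus taenia libraries and 148 FPKM in that hypothalamus library. Its median was 55.0 FPKM in the nucleus taenia and 42.9 FPKM in the hypothalamus. Male testosterone nucleus taenia replicate 2 was the highest library for 33 of the 42 genes, and without it 13 of the 42 still met the rule, against 62 of 70 in the first set and 12 of 12 in the third.

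The third set of 12 genes followed the region more evenly, with less spread. Its median standard deviation within groups was 0.46, and its median difference was 0.86 in males and 0.71 in females. Its mean centred level was −0.15 to 0.62 in male nucleus taenia and −1.29 to −0.25 in male hypothalamus, so the male libraries of the regions did not overlap. In females, where they did, it was −0.22 to 1.33 in the nucleus taenia and −1.03 to 0.55 in the hypothalamus. The rule chose these genes by the region difference in these same libraries, which favours such a separation. The ranges are therefore a description. Both genes with the narrowest overlap between regions, named above, belonged to this set. ENSTGUG00000015212, closest to the others of the set, had 9.52 to 27.4 FPKM in the nucleus taenia and 4.06 to 15.0 FPKM in the hypothalamus, and all 12 nucleus taenia libraries lay above the hypothalamus median of 7.35 FPKM.

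**Figure D3:**
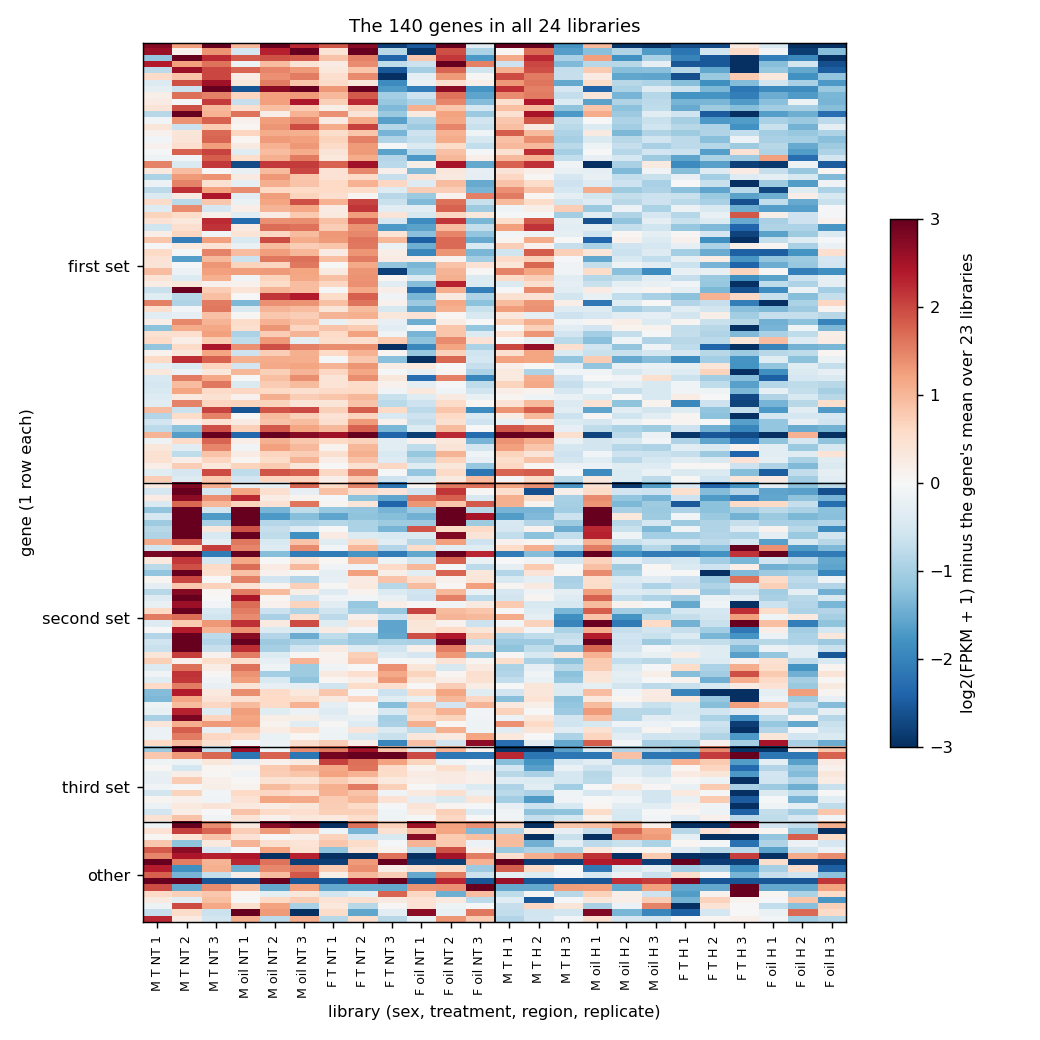
Each row is 1 of the 140 genes and each column a library, with colour for log2(FPKM + 1) minus the gene's mean over 23 libraries; nucleus taenia columns stand left of the vertical line and hypothalamus columns right of it, and horizontal lines part the sets of 70, 42 and 12 genes and the other 16. The first set is also high in M T H 1 and 2, and the second set is darkest in M T NT 2, M oil NT 1 and M oil H 1.

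Averaged over all 140 genes, the centred level ran from −0.38 to 1.18 in the nucleus taenia and from −0.92 to 0.30 in the hypothalamus. In 7 of the 12 nucleus taenia libraries it lay above every hypothalamus library used. Libraries of the same sex, treatment and number were also set side by side across regions. The mean level was higher in the nucleus taenia in 10 of 11 such pairs, by up to 1.89 in female control number 2. In male testosterone number 1 it was lower, at 0.14 in the nucleus taenia and 0.30 in the hypothalamus, and 38.6% of the 140 genes were higher in the nucleus taenia there, against 44.9% of all genes. The share was 63.6% to 94.3% in the other 10 pairs, against 46.5% to 57.3% of all genes. These libraries, except for the pairing by number, are those that chose the genes.

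The left-out library is the only one that took no part in the choice. This female testosterone hypothalamus replicate 3 scored −1.18 over the 140 genes, below all 23 others. In 87 of the 140 genes, or 62.1%, it lay below the mean of the other female hypothalamus libraries, and over the 11006 genes in 51.3%. It lay nearer to the female hypothalamus mean than to the female nucleus taenia mean in 102 of the 140 genes, or 72.9%, and over the 11006 genes in 62.6%. The rule put the female hypothalamus mean below the nucleus taenia mean in each of the 140. Any value below the hypothalamus mean was thus nearer to it, and the 102 genes include the 87. Over all genes the means lie in either order, so that share is not a like reference, and nothing is read from it. No male reference was compared, although the library lay within the male hypothalamus range on the genes called higher in male nucleus taenia. Over all 11006 genes its mean centred level was −0.33, against −0.08 to 0.06 in the others, and the part of this general shift in its low level here was not tested.

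**Figure D4:**
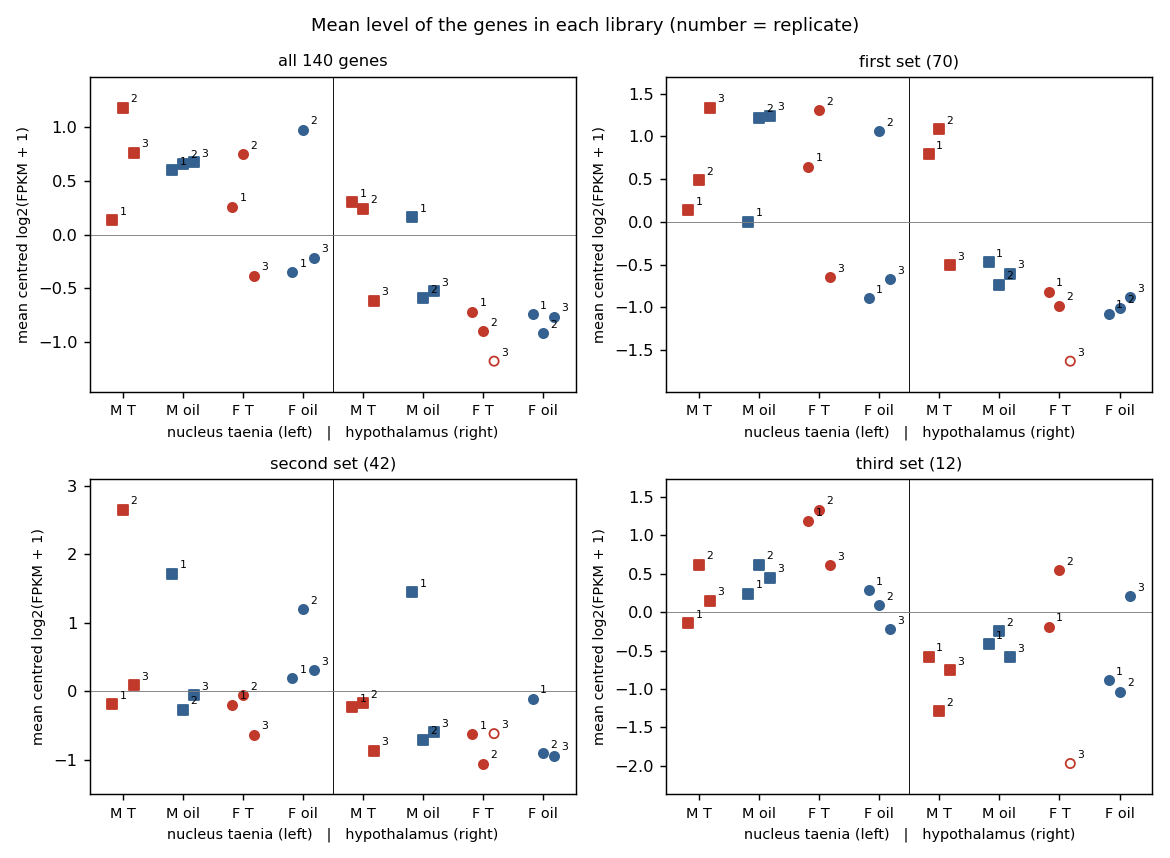
Mean over genes of centred log2(FPKM + 1) in each library, for all 140 genes and for the 3 sets, with nucleus taenia groups left of the line and hypothalamus groups right of it (M, male, squares; F, female, circles; T, testosterone, red; oil, control, blue; the open circle is the left-out library; numbers are replicates). In the first set male testosterone hypothalamus replicates 1 and 2 stand with the high nucleus taenia libraries, and in the second set 4 libraries stand above the rest.

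The rule did not use the difference between the sexes at a given region. Of the 140 genes, 118 had the higher estimate in males in the nucleus taenia and 119 in the hypothalamus, and 110 in both. Shares over all genes are not given for these counts, and many of the genes vary together. The median male minus female difference was 0.42 in the nucleus taenia, where over all 13551 genes it was −0.02. In the hypothalamus it was 0.55, where over all 13575 genes it was 0.001. By limma's adjusted p, 0 of the 140 genes passed for sex in the nucleus taenia, where 0.989% of 13551 genes passed, and 0 in the hypothalamus, where 0.685% of 13575 genes passed. At an unadjusted p under 0.05 there were 5 of the 140 in the nucleus taenia, or 3.57%, against 10.7% of all genes. In the hypothalamus there were 38, or 27.1%, against 10.4% of all genes.

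The direction was the same in each fit that left out 1 library. The median ran from 0.28 to 0.66 in the nucleus taenia and from 0.47 to 0.68 in the hypothalamus. The number of calls in the hypothalamus depended on male testosterone replicates: it was 10 without replicate 3, where 1.05% of all genes passed, and 1 without replicate 2, where 0.494% did, all higher in males. A replicate block also gave 1, the only call among 13575 genes. With the left-out female testosterone hypothalamus replicate 3 kept, 0 of the 140 and 0 of all genes passed in the hypothalamus, at a median of 0.73 with 119 of the 140 higher in males. The first and second sets were higher in males, in 65 of 70 and 39 of 42 genes in the nucleus taenia and in 68 of 70 and 38 of 42 in the hypothalamus. The third set ran the other way, lower in males in 10 of 12 genes in the nucleus taenia and 11 of 12 in the hypothalamus. Genes of a set were grouped because they vary together, so these counts are not counts of independent genes. In male nucleus taenia the second set was high in testosterone replicate 2, at 2.65, and in control replicate 1, at 1.72. Its median over the nucleus taenia libraries was 0.02 in males and 0.07 in females. In the hypothalamus it was −0.42 in males and −0.90 in females. The fits that left out 1 library never removed both high male nucleus taenia libraries. The third set was high in testosterone females, at mean centred levels of 0.62 to 1.33 in the nucleus taenia. Control females had −0.22 to 0.28 there and control males 0.24 to 0.62. In the hypothalamus libraries used, testosterone females had −0.19 and 0.55 and control females −1.03 to 0.21. Control males had −0.59 to −0.25. The middle control male lay above the middle control female in both regions.

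**Figure D5:**
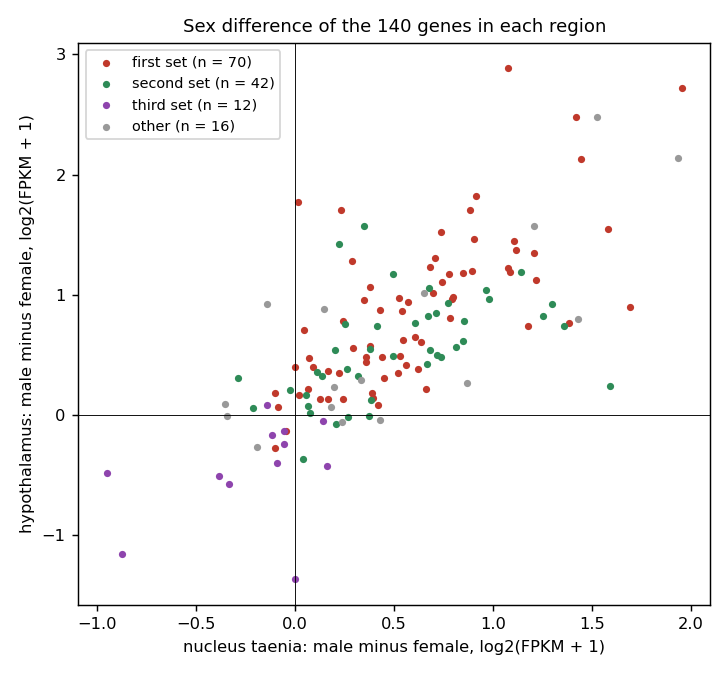
Male minus female difference in log2(FPKM + 1) of each of the 140 genes, in the nucleus taenia on the x axis and in the hypothalamus on the y axis, coloured by set. In the upper right corner are the 110 genes with the higher estimate in males in both regions, and the third set lies mostly below 0 on both axes.

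The gene with the smallest p for sex in the hypothalamus was ENSTGUG00000006595, which did not pass (log2 difference 2.13, SE 0.43, limma adjusted p = 0.0632). It had 93.2, 145 and 32.1 FPKM in testosterone males and 14.5, 9.32 and 20.5 FPKM in control males. In the females used it had 12.8 and 3.46 FPKM with testosterone and 4.82, 7.73 and 8.08 FPKM in controls. The male values lay above the female ones except in control replicate 2, which fell below female testosterone replicate 1. In the nucleus taenia the smallest p belonged to ENSTGUG00000014283, which was lower in males and did not pass (log2 difference −0.88, SE 0.21, limma adjusted p = 0.105). It had 11.7, 11.4 and 16.5 FPKM in testosterone males and 10.7, 14.1 and 15.6 FPKM in control males. It had 56.4, 42.6 and 30.8 FPKM in testosterone females and 21.0, 11.7 and 13.0 FPKM in control females. The males lay below the testosterone females and overlapped with the control females.

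Testosterone in the egg was the study's treatment, and the rule averaged over it. By limma's adjusted p, 0 of the 140 genes passed in males or females in either region, where 0% of 13551 genes passed in the nucleus taenia and 0% of 13575 in the hypothalamus. In the male nucleus taenia 72 of the 140 genes, or 51.4%, were higher with testosterone, against 52.0% of all genes. The median testosterone minus control difference of the 140 genes was 0.01, against 0.02 for all genes. Single libraries set its sign: it was 0.32 when testosterone replicate 1 was left out, and −0.19 without testosterone replicate 2, −0.18 without testosterone replicate 3, −0.16 without control replicate 1 and −0.08 without control replicate 2. In the female nucleus taenia it was 0.27, against 0.03 for all genes, with 86 higher, or 61.4%, against 53.5% of all genes. Without testosterone replicate 2 it was −0.02, and without control replicates 1 or 3 it was 0.04 or 0.10. Without testosterone replicate 3 it was 0.61 and without control replicate 2 it was 0.58. In neither sex did this median of the 140 genes keep its direction without each library. The sets differed in the female nucleus taenia. The set of 70 genes was higher with testosterone in 59, at a median of 0.58, but its groups overlapped. Its mean centred level was 0.64, 1.30 and −0.65 with testosterone and −0.89, 1.06 and −0.67 in controls. The set of 12 was higher in 12, at 0.78, with levels of 0.62 to 1.33 against −0.22 to 0.28. The set of 42 was lower in 33, at −0.78, with −0.63 to −0.06 against 0.19 to 1.20. Genes of a set vary together, so these counts, and those by set below, are not counts of independent genes. The half-width of the 95% interval of a single gene had a median of 1.60 among the 140 genes in both sexes, a 3.03-fold change, and 0.79 over all genes. Changes smaller than that were mostly not detectable for these genes, and larger ones could also go uncalled. The interval is unadjusted, whereas a call needed an adjusted p under 0.05 over 13551 genes. In the female nucleus taenia ENSTGUG00000014283 did not pass at a difference of 1.45 with a half-width of 0.65.

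In the male hypothalamus 86 of the 140 genes, or 61.4%, were higher with testosterone, against 45.5% of all genes. The median difference was 0.29, against −0.05 for all genes. Leaving out 1 library kept it positive, from 0.18 without control replicate 2 to 0.57 without testosterone replicate 3, and it was 0.55 without control replicate 1. All 70 genes of the first set were higher, with a median of 0.97, and 31 of the 42 genes of the second set were lower. In the male nucleus taenia these sets ran the other way. The set of 70 was lower in 42 genes, at a median of −0.20. The set of 42 was higher in 31 genes, at a median of 0.53. Testosterone and control libraries overlapped there in both sets. The hypothalamus estimates rested on the same libraries named above, testosterone replicates 1 and 2 for the first set and control replicate 1 for the second. Testosterone replicate 3, at −0.51 in the first set, lay within the −0.73 to −0.47 of the 3 controls. At an unadjusted p under 0.05 there were 28 of the 140 genes and 1410 of the 13575. Without testosterone replicate 3, 3 of the 140 genes and 33 of all passed the adjusted threshold. In the female hypothalamus the median was 0.05, against 0.0004 for all genes, with 78 higher, a count given without the share over all genes. With female testosterone hypothalamus replicate 3 kept it was −0.05, with 65 higher and 0 passing. Leaving out testosterone replicate 1 also gave −0.05, and leaving out replicate 2 gave 0.21. The third set was higher with testosterone there in 12 of 12 genes, at a median of 0.81. The left-out replicate 3 scored −1.97 in that set, against −0.19 and 0.55 in the testosterone libraries used. In males the third set was lower with testosterone in 10 of 12 genes in the nucleus taenia and 11 of 12 in the hypothalamus.

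The gene with the smallest p for treatment in the female nucleus taenia was again ENSTGUG00000014283, with the values given above (log2 difference 1.45, SE 0.30, limma adjusted p = 0.969). The 3 testosterone libraries lay above the 3 control libraries, but the gene did not pass. In the female hypothalamus used here it had 27.4 and 22.7 FPKM with testosterone and 10.4, 3.48 and 15.4 FPKM in controls. The left-out testosterone replicate 3 had 3.34 FPKM, below all 3 controls. In the male hypothalamus the gene with the smallest p was ENSTGUG00000013491. It had 110, 95.4 and 24.7 FPKM with testosterone and 16.9, 14.7 and 13.4 FPKM in controls (log2 difference 2.03, SE 0.48, limma adjusted p = 0.405). The groups did not overlap in that gene, and it did not pass. Picking a gene by its p favours groups that do not overlap, so nothing is read from the separation.

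In the male nucleus taenia ENSTGUG00000001718 had 27.3, 28.1 and 23.9 FPKM with testosterone and 35.3, 59.7 and 58.2 FPKM in controls (log2 difference −0.89, SE 0.28, limma adjusted p = 1). This gene too was picked by the smallest p of its contrast, and again the groups did not overlap, without a call. In the female hypothalamus ENSTGUG00000017480, picked in the same way, had 5.75 and 0 FPKM with testosterone and 20.8, 61.8 and 27.1 FPKM in controls (limma adjusted p = 0.998).

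Averaged over both sexes and regions, the treatment passed for 0 of the 140 genes, where 0% of 13600 genes passed. With testosterone 93 of the 140 genes were higher, a count given without the share over all genes. The median difference was 0.16, against 0.004 for all genes. Leaving out 1 library gave 0.09, without female testosterone nucleus taenia replicate 2, to 0.26, without female control nucleus taenia replicate 2. The smallest p belonged to ENSTGUG00000008738, whose 4 listings at 0 were all in testosterone libraries (limma adjusted p = 0.762). For a treatment difference that differs between the regions, 0 of the 140 genes passed, where 0% of 13600 genes passed, with 2 of the 140 and 521 of all at an unadjusted p under 0.05. The smallest p there was that of ENSTGUG00000004381 (limma adjusted p = 1.00). The region difference was positive in 119 genes in testosterone males, 128 in control males, 128 in testosterone females and 137 in control females. It was positive in all 4 in 98 genes and at least 0.5 in all 4 in 23. The rule fixed its mean over the treatments of each sex, so these counts are a description.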

How the data were processed

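RNA was measured in 24 libraries. The 24 methylation samples of the series are not analysed here. FPKM values were computed by the authors. The submitters' processing notes name Cufflinks 2.2.1, TopHat2 2.1.1 and cutadapt 1.9.1. The genome build is not given in the sources used here. FPKM divides out depth and gene length, so the deposited values do not keep the fragment number behind them: depth is unknown, and a few abundant genes can lower all others. No gene could be named, so the marker lists by symbol could not be applied.

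Differences were taken on log2(FPKM + 1), which understates the change of low genes. Tests used limma 3.58.1 in R 4.3.3 with 1 mean per group and variances moderated with a trend on mean expression. Genes needed a mean of at least 1 FPKM over the libraries of the fit, and the Benjamini-Hochberg adjustment ran over all of them. Sex and treatment were fitted on the 12 nucleus taenia or 11 hypothalamus libraries, and the contrasts over both regions on 23. Single genes were named by fixed rules: the 2 largest differences, the 2 narrowest overlaps, the 2 highest levels, and per contrast the smallest p where none passed. The centre gene of each set and its most similar gene were named after their values were seen. So were the genes given as exceptions by mean FPKM or by medians. The 140 genes and the rule were chosen with earlier results of these data known, and the sets, the reading of a list of one sex in the other and their alternatives were added after the values were seen. The tests were tried on simulated data. Figures were drawn with matplotlib 3.10.9.

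Replicate numbers are shared between groups. Library deviations from group means correlated between equal numbers at 0.151 to 0.231 across genes in all 3 pairs of female nucleus taenia libraries. By the rule for this check these counted as paired, although the labels give the numbers no meaning. The estimates and p-values given above still come from fits without a block, and the block was run as an alternative. The block changed no call there.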

Additional observations from a re-analysis of the deposited data

Results flagged for a closer look

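For 13 measures, the highest or lowest library was compared with the others of its sex and region, in 52 checks. It stood far from them in 5. The limits used correspond to about 1 in 20, or 2.6, for independent, normally distributed values. Most of the 13 measures are linear FPKM of chosen genes and some overlap, so that number does not strictly hold here. The mean level of the second set was 1.45 in male control hypothalamus replicate 1, with the next library at −0.17. ENSTGUG00000004372, a gene of that set, had 3332 FPKM in the same library, with the next at 1923 FPKM. ENSTGUG00000000571, of the same set, had 3228 FPKM in female testosterone nucleus taenia replicate 3, with the next at 1790 FPKM. ENSTGUG00000001910 had 26.8 FPKM in female control hypothalamus replicate 1, with the next at 4.83 FPKM. ENSTGUG00000005922 had 21.8 FPKM in male testosterone nucleus taenia replicate 1, below the 29.1 FPKM of the next.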

How the results depend on the processing

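The count of 140 genes moved by over 1.5 times under 3 of 35 alternatives: it was 90 with a pseudocount of 5, 45 at a least difference of 0.75 and 16 at 1. Medians in place of means gave 209 genes, with 93 of the 140 among them, and pseudocount 0.1 gave 160. Median-ratio scaling gave 125 and quantile normalization 135. Leaving out 1 library gave 108 to 188. With the replicate block the rule gave 153 genes, and the tests gave 1 call for sex in the hypothalamus, 1 call for region in males among the genes chosen in females, and 0 calls for the other contrasts. Outside the female nucleus taenia the numbers did not count as pairs by the rule for pairing. Across regions 9 of 11 pairs correlated above 0.1, the lowest at −0.06, and 16 of 22 libraries correlated best with their own number. The main fits over both regions did not model this correlation. Nor did the block used for the treatment averaged over both regions. Leaving out 1 library gave 0 to 3 calls among the 140 for treatment in the male hypothalamus, 0 to 10 for sex in the hypothalamus and 0 to 1 for region in females among the genes chosen in males. Over all genes the calls for sex were 134 in the nucleus taenia, with 65 to 245 when 1 library was left out and 0 with the block, and 93 in the hypothalamus, with 0 to 142 and 1. The median male difference of the genes chosen in females ran from −0.16 to 0.13. Of 360 alternative region differences of 6 named genes, 0 changed sign. With complete linkage the largest sets held 26 and 19 genes, so the sets depend on the clustering; with average linkage cut at 0.5 or 0.7 the first held 67 or 73. The cause of these changes was not tested.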
